A study of Arabidopsis thaliana with 6 samples.

Results

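The xyloglucan endotransglucosylase/hydrolase genes (XTH) of Arabidopsis thaliana were followed in seedling roots after 12 h in toxic boric acid. They were found by name, as every gene whose symbol or synonym is XTH and a number. Of 33 such genes in the RefSeq gene table, 10 had a named probe set of their own among the 22746 probe sets tested. They are XTH16, XTH18, XTH19, XTH20, XTH21, XTH26, XTH27 (listed as EXGT-A3), XTH29, XTH32 and XTH33, each with 1 probe set. The other 23 had no probe set under their name and were not analysed here. Of the probe sets tested, 8730 had no gene name, and whether any belongs to these 23 was not tested.

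Affymetrix ATH1 arrays were hybridised with root RNA from seedlings 5 days old, grown on plates under 16 h of light and 8 h of dark. The boric acid group (3 arrays) was moved to 0.5-strength MS (Murashige-Skoog salt) medium with 5 mM boric acid, and the control group (3 arrays) to the same medium without this addition. The growth text gives the boric acid medium for every sample, so the groups rest on the sample titles. The labels name no accession, mutant or transgene, call the replicates biological and do not say how many plants stand behind an array. Boric acid and control arrays with the same number, 1 to 3, are called pairs. Values are the authors' log2 expression values, and a change is boric acid minus control on that scale.

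Xyloglucan is a polysaccharide that coats and tethers cellulose in the primary walls of dicot plants. XTH enzymes are secreted into the wall, where they cut a xyloglucan chain and join the cut end to another chain or, in a few members, to water. They are best known from growing and differentiating cells, including those of the root. Boron acts in the same wall by linking pectin chains, and an excess of it slows root growth.

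After 12 h, XTH16 and XTH20 fell in boric acid and none of the 10 measured XTH genes rose. XTH16 was 4.78-fold lower (95% interval 3.04 to 7.51) and XTH20 was 1.89-fold lower (1.45 to 2.46). The other 8 did not pass the test, and among them XTH21 and XTH32 had changes of -0.84 and -1.03 while XTH19 and XTH27 had changes of 0.46 and 0.33. Calls were made with limma at a Benjamini-Hochberg adjusted p under 0.05 over all probe sets, where 3.25% of probe sets passed, 1.34% lower and 1.92% higher. The 2 of 10 XTH genes that fell can be read against that 1.34%. With the pair as a block, 9.15% of all probe sets passed, 3.85% lower and 5.30% higher. Again XTH16 and XTH20 fell and none of the 10 rose. The median change of the 10 genes was -0.13, beside -0.01 for all probe sets. The genes were taken up with earlier results of these arrays known, so these counts are descriptions and no test of the family.

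**Figure D1:**
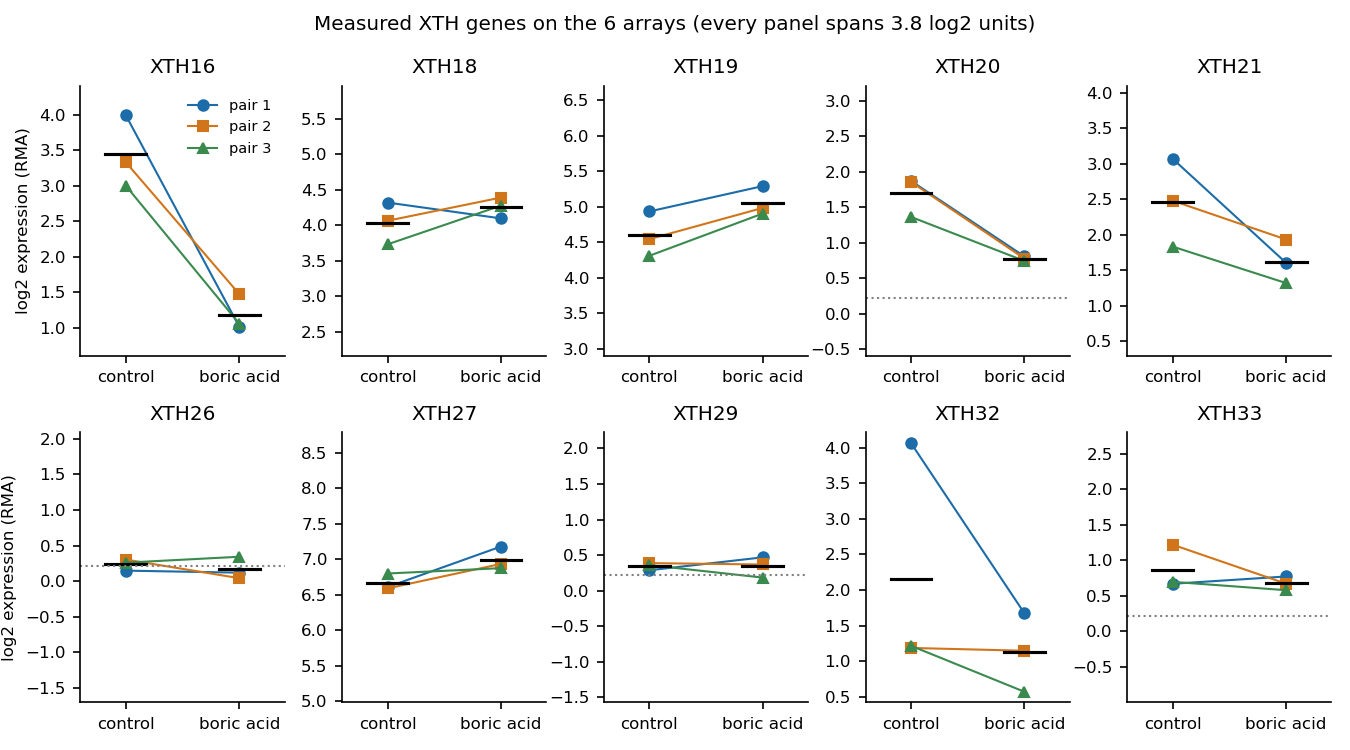
Log2 expression of the 10 measured XTH genes on the 3 control and 3 boric acid arrays, with a line joining same-numbered arrays and a black bar at each group mean. The dotted line is the highest value of the TrpnX spots, bacterial sequences that serve as a blank, at 0.217. XTH16 and XTH20 lay lower on all boric acid arrays than on any control array, and XTH26 and XTH29 lay near the dotted line throughout.

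XTH16 (AT3G23730), the gene with the largest change of the 10, stood at 3.99, 3.33 and 3.001 on control arrays 1, 2 and 3. On boric acid arrays 1, 2 and 3 it stood at 1.02, 1.48 and 1.06. The lowest control array was thus far above the highest boric acid array, and the groups did not overlap. The group means were 3.44 ± 0.51 (SD, n = 3) in control and 1.18 ± 0.25 (SD, n = 3) in boric acid, a change of -2.26 ± 0.27 (SE, limma, adjusted p = 0.0135). Within pairs 1, 2 and 3 it differed by -2.98, -1.85 and -1.94. Only 31 of the 22746 probe sets had a lower change, and 0.418% lay at least as far from 0 in either direction. With 1 array left out at a time the change lay between -2.48 and -1.98. The call was lost without boric acid 2 (adjusted p = 0.0566), boric acid 3 (0.0646) or control 2 (0.0644). In those fits 70, 201 and 143 of all probe sets passed, against 740 with all arrays.

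XTH18, XTH19 and XTH20 are close relatives within the family, known from reporter lines for expression in different parts and tissues of the root. XTH18 and XTH19 are next to each other in the TAIR10.1 gene order, with XTH24 on the other side of XTH18, and XTH20 lies on another chromosome. How far the probes of such relatives bind each other's transcripts was not tested.

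XTH20 (AT5G48070), a gene also known to act with XTH19 when cut stems heal, stood at 1.87, 1.86 and 1.36 on control arrays 1, 2 and 3. It stood at 0.81, 0.78 and 0.74 on the boric acid arrays, a spread of 0.064 between the lowest and the highest. The groups did not overlap, and the boric acid arrays lay closer together than the control arrays. The means were 1.70 ± 0.29 (SD, n = 3) in control and 0.78 ± 0.03 (SD, n = 3) in boric acid, a change of -0.92 ± 0.16 (SE, limma, adjusted p = 0.0359). Within pairs it differed by -1.06, -1.08 and -0.62. The blank TrpnX spots reached 0.217 at most, so XTH20 in boric acid was low but above them on all 3 arrays. With 1 array left out, only the fit without control 3 kept the call (adjusted p = 0.0270), and the 6 fits gave a change from -1.09 to -0.83. Leaving out a boric acid array gave an adjusted p of 0.0933 (array 1), 0.146 (array 2) or 0.134 (array 3). Leaving out control 1 or control 2 gave 0.0503 or 0.131. Of all probe sets, 349, 70 and 201 passed without boric acid 1, 2 and 3, against 740 with all arrays. Without control 1 and control 2, 1129 and 143 passed.

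XTH19 (AT4G30290) stood at 4.93, 4.54 and 4.31 on control arrays and at 5.29, 4.98 and 4.90 on boric acid arrays 1, 2 and 3. Control 1 lay just above boric acid 3, so the groups overlapped, while each boric acid array was above its own pair's control. The within-pair differences were 0.36, 0.44 and 0.59. The change was 0.46 ± 0.19 (SE, 95% interval 0.0038 to 0.92, limma, adjusted p = 0.294). With the pair as a block its standard error was 0.11 and the adjusted p 0.0613, still short of the threshold.

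Its neighbour XTH18 (AT4G30280), which is expressed in the root, stood at 4.32, 4.07 and 3.73 on control arrays and at 4.098, 4.39 and 4.28 on boric acid arrays. The groups overlapped, and the pairs disagreed in sign, at -0.22, 0.33 and 0.54. The change was 0.22 ± 0.17 (SE, 95% interval -0.20 to 0.63, adjusted p = 0.641), 0.06 without control 3 and 0.36 without control 1. Its change minus that of XTH19 was -0.25, with within-pair values of -0.58, -0.11 and -0.05. A two-sided exact permutation test over the 6 arrays, which does not use the pairs, gave p = 0.2, the smallest possible being 0.1.

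XTH21 (AT2G18800), known to be needed for normal growth of the primary root, stood at 3.07, 2.48 and 1.83 on control arrays and at 1.60, 1.93 and 1.32 on boric acid arrays 1, 2 and 3. The highest boric acid array lay above the lowest control array, so the groups overlapped. Each boric acid array was below its own pair's control, by 1.47 in pair 1 and by 0.55 and 0.51 in pairs 2 and 3 (differences of -1.47, -0.55 and -0.51). The change was -0.84 ± 0.33 (SE, 95% interval -1.62 to -0.06, limma, adjusted p = 0.262). With the pair as a block the standard error was 0.21 and the adjusted p 0.0687. The change was -0.54 without control 1 and -0.53 without both arrays numbered 1.

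**Figure D2:**
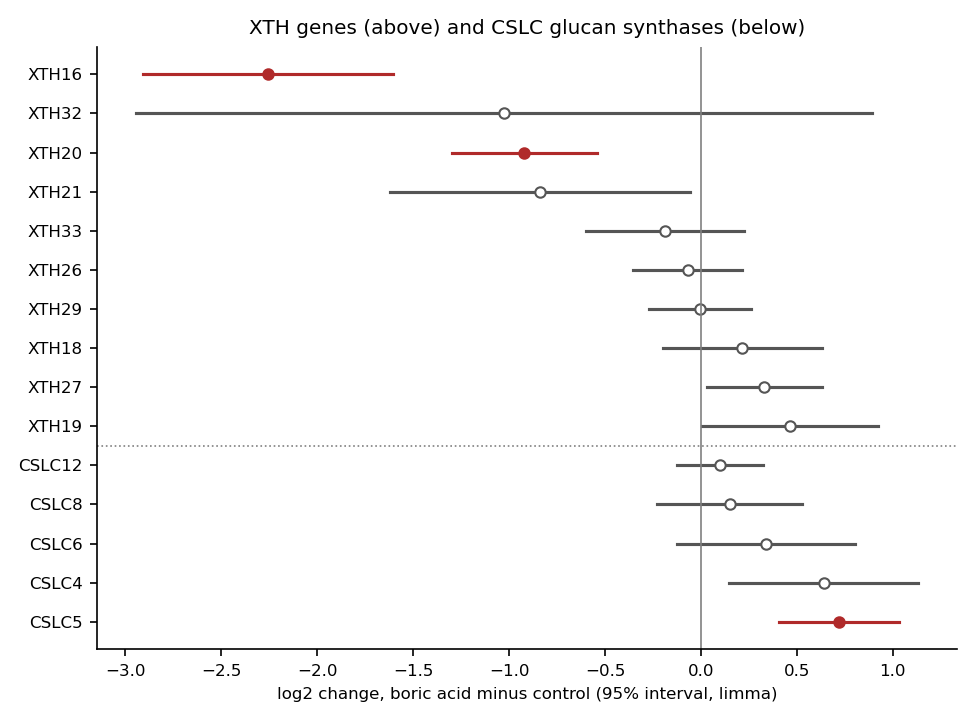
Log2 changes, boric acid minus control, with the 95% intervals of the limma fit, for the 10 XTH genes above the dotted line and the 5 CSLC genes below it. Filled red points passed the adjusted p of 0.05. XTH16 had the lowest change at -2.26, XTH32 had the widest interval, and all 5 CSLC changes were above 0.

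Of the more distant members, XTH27, XTH29, XTH32 and XTH33 belong to a separate branch of the family. XTH27 (AT2G01850), known from the differentiation of water-conducting cells, stood at 6.61, 6.59 and 6.80 on control arrays and at 7.18, 6.93 and 6.87 on boric acid arrays. All boric acid arrays lay above all control arrays, by 0.57, 0.34 and 0.08 within pairs. Its change of 0.33 ± 0.13 (SE, 95% interval 0.03 to 0.63) did not pass (limma, adjusted p = 0.254, and 0.211 with the block).

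XTH32 (AT2G36870) stood at 4.07 on control 1 and at 1.18 and 1.21 on control arrays 2 and 3, against 1.67, 1.14 and 0.57 on the boric acid arrays. The 2 highest of its 6 values were those of the arrays numbered 1, and the spread in control was larger than the change. The change was -1.03 ± 0.80 (SE, 95% interval -2.94 to 0.89, adjusted p = 0.626). It was -0.07 without control 1 and -0.34 without both arrays numbered 1.

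XTH33 (AT1G10550), an XTH located at the plasma membrane, stood between 0.67 and 1.22 on control arrays and between 0.58 and 0.77 on boric acid arrays. Its change was -0.19 ± 0.17 (SE, 95% interval -0.60 to 0.22), and -0.0091 without control 2. XTH26 (AT4G28850), known as a root hair enzyme, lay between 0.15 and 0.30 in control and between 0.04 and 0.34 in boric acid. XTH29 (AT4G18990) lay between 0.29 and 0.39 in control and between 0.18 and 0.47 in boric acid. XTH26 and XTH29 were at or near the level of the TrpnX spots on all 6 arrays, and a change could not be detected at that signal (-0.07 and -0.0044).

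In all, the control and boric acid arrays did not overlap for 3 of the 10 genes, XTH16 and XTH20 lower and XTH27 higher. Of all probe sets, 10.5% lay apart in this way with boric acid lower and 10.9% with boric acid higher. Within pairs, 4 genes were lower in all 3 pairs (XTH16, XTH20, XTH21 and XTH32) and 2 were higher in all 3 (XTH19 and XTH27). The shares over all probe sets were 22.3% lower and 21.3% higher, so 2 of 10 higher is about the background. At an unadjusted limma p under 0.05 stood 5 genes, XTH16, XTH20 and XTH21 with changes below 0 and XTH19 and XTH27 with changes above 0. Of all probe sets, 16.7% had an unadjusted p under 0.05.

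**Figure D3:**
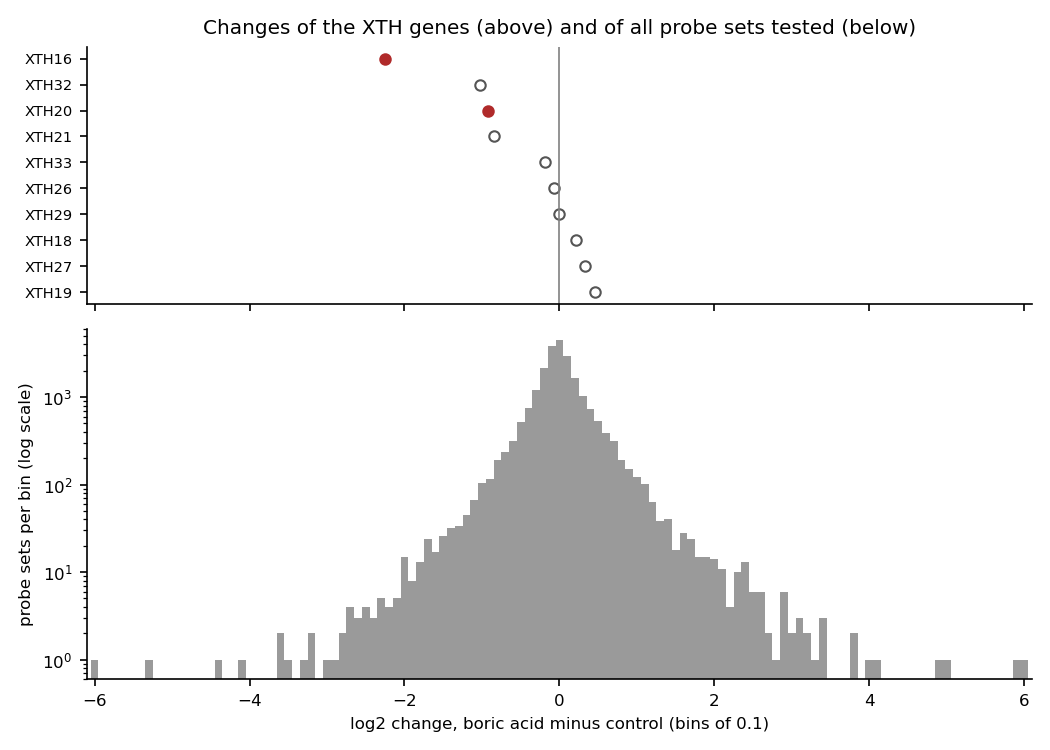
Log2 changes of the 10 XTH genes, 1 gene a row with filled red points past the adjusted p of 0.05, above the number of probe sets in each bin of change on a log axis for all 22746 tested. XTH16 lay in the sparse lower tail at -2.26, and the other 9 lay between -1.03 and 0.46.

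Whether the members moved by different amounts was tested on the difference of 2 genes' log2 values within an array. All 6 pairs of XTH16, XTH19, XTH20 and XTH21 were compared by exact two-sided permutation tests, with Benjamini-Hochberg adjustment over the 6. With 3 arrays against 3 the smallest possible p is 0.1, so no pair could pass 0.05. The change of XTH19 lay 1.38 above that of XTH20, and the within-array difference did not overlap between groups, at 2.69 to 3.06 in control and 4.16 to 4.48 in boric acid (exact p = 0.1, adjusted p = 0.12). Within pairs 1, 2 and 3 that difference moved by 1.42, 1.52 and 1.21. XTH16 lay below XTH19, XTH20 and XTH21 by differences of -2.72, -1.34 and -1.42, and XTH19 lay 1.31 above XTH21, each with groups that did not overlap and with that same smallest p. The changes of XTH20 and XTH21 differed by -0.08 ± 0.28 (SE), within array differences that overlapped between groups (exact p = 0.8, adjusted p = 0.8). XTH16, XTH19, XTH20 and XTH21 were chosen with earlier results of these data known, so these separations are descriptions. How often the within-array difference of 2 other probe sets lies apart between groups was not tested.

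**Figure D4:**
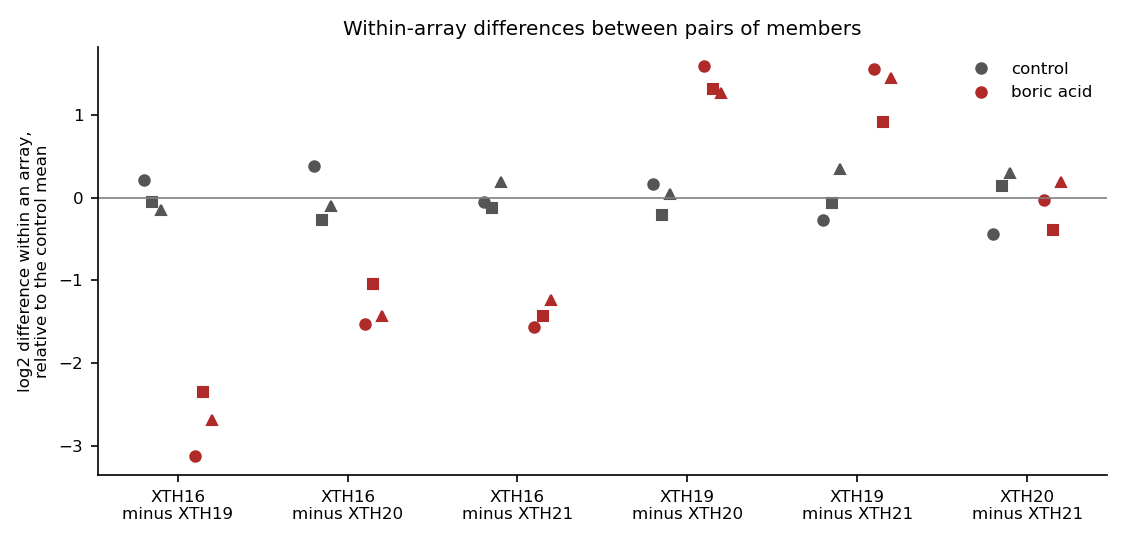
Difference of 2 genes' log2 values within an array, relative to its mean in control, for the 6 pairs of XTH16, XTH19, XTH20 and XTH21 (circles, squares and triangles are arrays 1, 2 and 3). Control and boric acid arrays lay apart for 5 pairs and overlapped for XTH20 minus XTH21. How often such differences lie apart for 2 other probe sets was not tested.

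Over the 6 arrays the levels of XTH16, XTH20 and XTH21 ran together, with a Pearson r of 0.967 between XTH16 and XTH20, 0.879 between XTH16 and XTH21 and 0.874 between XTH20 and XTH21. XTH19 had an r of 0.676 with XTH18 and -0.517 with XTH20. These describe 6 points in 2 groups of one experiment. The genes most like each member over the 6 arrays were taken from those with a mean of at least 2 and a range of at least 1, 1932 or 1933 genes, of which 53 to 141 had an r over 0.9 with a member.

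XTH16 was most like UGT74B1, a glucosyltransferase of glucosinolate synthesis (r = 0.998, change -1.22), AT5G12940 (r = 0.998, change -1.75) and AT3G22240 (r = 0.997, change -1.13). XTH20 was most like MSRB9, a methionine sulfoxide reductase (r = 0.996, change -1.21), AT1G12080 (r = 0.995, change -1.25) and AT5G26260 (r = 0.990, change -0.74). XTH19 was most like AT4G10140 (r = 0.994), AT4G11570 (r = 0.991) and the plastid gene ndhC (r = 0.991). XTH21 was most like AT3G12870 (r = 0.980), AT4G25250 (r = 0.977) and AT3G10190 (r = 0.971). These genes were picked for their likeness over the same arrays, so their own changes are no further result.

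The genes that make the substrate were looked at beside the enzymes that cut it. Of 18 genes written down for xyloglucan synthesis and breakdown, 5 had a named probe set of their own. All 5 were CSLC genes, the Golgi synthases that make the glucan backbone. The rest of the list was not analysed, and whether any probe set without a gene name belongs to it was not tested. CSLC5 rose and the other 4 did not pass, with changes above 0 in all 5 and a median of 0.34 (1 of 5 higher, beside 1.92% of all probe sets, and 5 of 5 above 0, beside 46.9%).

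CSLC5 (AT4G31590) stood at 2.59, 2.52 and 2.91 on control arrays and at 3.37, 3.47 and 3.35 on boric acid arrays 1, 2 and 3. The groups did not overlap. Its change was 0.72 ± 0.13 (SE, 95% interval 0.40 to 1.03, limma, adjusted p = 0.0431, and 0.0324 with the block). It kept the call in 1 of the 6 fits without 1 array, the one without control 3. It missed the threshold without both arrays numbered 1 (adjusted p = 0.0706), when only probe sets with a mean of at least 1 were tested (adjusted p = 0.0543) and when the variance was fitted with a trend on level (adjusted p = 0.107).

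CSLC4 (AT3G28180), a main backbone synthase of the plant, stood at 2.14, 2.80 and 2.77 on control arrays and at 3.39, 3.13 and 3.10 on boric acid arrays. All boric acid arrays were above all control arrays, and the change of 0.64 ± 0.20 (SE) did not pass (adjusted p = 0.178). Pair 1 differed by 1.25 and pairs 2 and 3 by 0.33 each, and the change was 0.42 without control 1 and 0.33 without both arrays numbered 1. CSLC6 had a change of 0.34 ± 0.19, and 0.15 without boric acid 3. CSLC8 and CSLC12 were low in both groups, at 0.65 and 0.33 in control, with changes of 0.15 and 0.10, and without control 3 the changes were 0.00021 and 0.057.

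**Figure D5:**
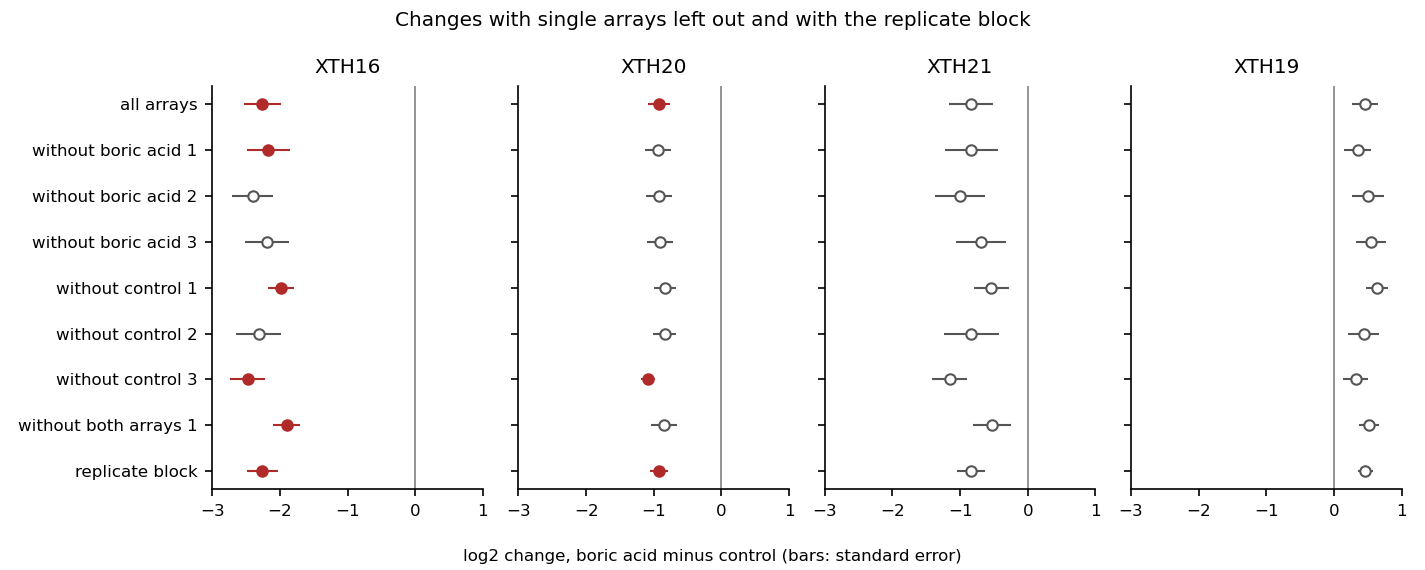
Log2 change with its standard error for XTH16, XTH20, XTH21 and XTH19 with all arrays, without each array in turn, without both arrays numbered 1 and with the replicate block. Filled red points passed the adjusted p of 0.05. Each gene kept the sign of its change in every fit shown, and XTH20 passed only with all arrays, without control 3 and with the block.

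RNA quality and tissue markers were set beside these results. The difference between the 3′ and 5′ actin probe sets was 4.84 on boric acid 1 and 4.50 on control 1, and lower on the remaining 4 arrays (3.88 to 4.21). It was higher on the boric acid array of each pair, at 4.21 against 4.18 in pair 2 and 4.198 against 3.88 in pair 3. XTH16, XTH21, XTH27, XTH32 and the dim XTH29 had their largest within-pair differences in pair 1, and the part of RNA quality in the XTH changes was not tested. Without both arrays numbered 1, XTH16 had a change of -1.90 and passed (adjusted p = 0.00853), and XTH20 had one of -0.85 and did not (adjusted p = 0.0548). Of 20 tissue markers, 5 had a named probe set. The root gene PYK10 stood between 9.96 and 10.08 on boric acid arrays and between 10.12 and 10.44 on control arrays, lower in all 3 pairs. Its change of -0.25 ± 0.12 (SE) did not pass (adjusted p = 0.364). None of the markers of meristem, endodermis, stele or root epidermis outside the hairs had a named probe set. Probe sets without a gene name were not searched for them. Of 5 root hair markers, EXPA7 and EXPA18 had a named probe set. Their summed linear level was 29.3 to 37.3 in boric acid and 20.5 to 34.2 in control. EXPA7 had a change of 0.02 (adjusted p = 0.990). The change of EXPA18 was 0.67, which passed with the block (adjusted p = 0.0353) and not without it (adjusted p = 0.190). LHCB4.1 and LHCB4.2, 2 of 6 green tissue markers, summed to 13.0 to 23.0 in boric acid and 17.4 to 29.9 in control. LHCB4.2 had a change of -0.99 ± 0.33 (SE, adjusted p = 0.187), with within-pair differences of 0.04, -1.75 and -1.26. LHCB4.1 had one of -0.22 ± 0.27 (SE, adjusted p = 0.784). The part of cell makeup in the XTH changes was not tested, and in whole roots fewer cells of a type and less RNA per cell cannot be told apart.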

How the data were processed

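Biotin-labelled RNA of 6 samples was hybridised to 6 arrays. RMA was the authors' normalization, per the submitters' processing notes, and its version and parameters are not given in the sources used here. The deposited table holds a log2 value for each probe set and array, with array medians of 1.46 to 1.50. The hybridization controls cre and bioB differed by 5.43 to 6.02, near the log2 of the ratio of the amounts added. Groups and replicate numbers were taken from the sample titles, since the growth text gives the boric acid medium for every sample.

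The 64 control probe sets among the 22810 were left out of the fit. Names came from the array's probe table, updated through RefSeq genes of TAIR10.1: 13513 probe sets had 1 gene, 503 several and 8730 none, and none of the 503 listed an XTH gene. No build is named for the arrays, so coordinates are not given. The table of gene names was the only reference used. Protein and promoter comparisons were not run.

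Boric acid was compared with control by limma 3.58.1 (R 4.3.3) over 22746 probe sets, without a block, two-sided with Benjamini-Hochberg adjustment. "Rose" and "fell" mean an adjusted p under 0.05. The code was tested on simulated data. Permutation tests used scipy 1.17.1. The number of arrays limits the precision. Same-numbered arrays deviated together from their group means, with correlations over probe sets of 0.608, 0.231 and 0.618 for numbers 1, 2 and 3, against -0.619 to 0.284 for other couples. All were over 0.1, so the number was taken to pair the samples and block values are given. Control 2, though, correlated more with boric acid 3 (0.284) than with boric acid 2 (0.231). Deviations from a group mean sum to 0, which pushes the other couples down. What the numbers stand for is not given in the labels, and p-values measure the spread between these samples.

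Every XTH probe set was named, with each measured gene of the xyloglucan list and the 3 genes most correlated with each of XTH16, XTH19, XTH20 and XTH21. The members, lists and tests were chosen with earlier results of these data known. The comparison of XTH18 with XTH19 was added after their values were seen. Alternatives were the block, leaving out arrays, repeated quantile normalization, median centring, a minimum mean of 1 and a variance trend.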

Additional observations from a re-analysis of the deposited data

How the results depend on the processing

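The probe sets past the threshold numbered 740, and 2081 with the replicate block, 1604 without both arrays numbered 1 and 70 to 1129 without single arrays (lowest without boric acid 2, highest without control 1). XTH genes past it numbered 2 with all arrays and with the block, 1 without both arrays numbered 1, and 0 to 2 without single arrays: 0 without boric acid 2, boric acid 3 or control 2, 1 without boric acid 1 or control 1, and 2 without control 3. XTH16 ranged from -2.48 to -1.98 and XTH20 from -1.09 to -0.83 without single arrays, and XTH20 was at -0.85 without both arrays numbered 1. These fits have fewer arrays, and the cause of the losses was otherwise not tested. Of the 5 measured xyloglucan synthesis genes, 1 passed with all arrays and 0 without both arrays numbered 1, with a minimum mean of 1 or with a variance trend, and 0 to 1 without single arrays. The cause was not tested. XTH29, near background, ranged from -0.0687 to 0.0738 without single arrays and changed sign at 0.0738, 0.0171 and 0.0031 without boric acid 3, control 2 and control 3, and at 0.0190 with repeated quantile normalization. XTH20 minus XTH21 ranged from -0.297 to 0.0773 without single arrays, where the sign turned without boric acid 2 (0.0773) and control 3 (0.0680). The block, repeated normalization and centring changed no call of an XTH or CSLC gene, and XTH26, XTH29 and XTH33 were not tested at a minimum mean of 1. Each XTH gene had 1 probe set, so taking 1 per gene changed nothing. Signal near background limits XTH20, XTH26, XTH29 and XTH33, and XTH32 on boric acid 3 (0.57). XTH16 in boric acid was above background but below the array medians, at 1.02 to 1.48.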
